A study of Homo sapiens with 14 samples.

Results

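The clustered protocadherins are 53 genes in a row on human chromosome 5, and they were taken here as every chromosome 5 gene whose symbol names a member of the alpha, beta or gamma cluster. They were 53 of the 35805 genes in the deposited expression table: 15 alpha, 16 beta and 22 gamma genes. The cells were K562, a human erythroleukaemia line, that carried dCas9-KRAB, a repressor protein that a guide RNA brings to a gene's start to switch it off. The groups were cells with guides against TASOR (2 libraries in the labels, each with its own guide), MPP8 (2 libraries, 1 guide each), PPHLN1, which encodes Periphilin (2 libraries, 1 guide each), or TASOR2 (3 libraries, 1 guide each), then untransduced dCas9-KRAB cells with no guide (2 libraries), and cells with a guide to AAVS1, a safe-harbour site used as a negative control (sgAAVS1, 3 libraries). RNA of the cells with guides was collected 7 days after transduction, and the labels give no day for the untransduced cells. The comparisons asked what loss of a subunit of HUSH (TASOR, MPP8 and Periphilin) or of the related HUSH2 complex (TASOR2 in the place of TASOR, with the same MPP8 and Periphilin) does to the transcripts of these genes.

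Clustered protocadherins are cadherin-type adhesion proteins that are best known from neurons, where each cell switches on a small, largely random set of them and uses the mix to tell its own branches from those of other cells. In the alpha and gamma clusters each gene has its own promoter and its own large first exon for the extracellular part, spliced to constant exons that all genes of the cluster share, while each beta gene is a single large exon with no shared part. CTCF and cohesin pick the promoters, DNA methylation, SMCHD1 and SETDB1 hold the others silent, and HUSH is a chromatin silencing complex best known for repressing retroelements and other long transcribed DNA with few introns.

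Most promoters of the clusters carry a short conserved element. Short words are shown here because gamma genes with very different levels share the letters CGCTGT. A match to these letters alone does not show that the whole element is present, in PCDHGC4 or in another gene. RefSeq promoters (GRCh38.p14, 250 bases before to 50 after the start) were found for 47 of the 53 genes: 13 alpha, 14 beta and 20 gamma, without PCDHA3, PCDHA13, PCDHB6, PCDHB11, PCDHGA12 and PCDHGC5. The windows of 30 bases are all on the plus strand and written 5′ to 3′. Capitals mark CGCTGT in the gamma genes, and in the alpha and beta genes the commonest word of 10 letters in that cluster's promoters. PCDHGA1, PCDHGB1 and PCDHGC3 are the first genes of the gamma A, B and C subfamilies, PCDHGA4 and PCDHGB2 were chosen after their high levels and PCDHGC4 after its low level were seen, and PCDHB2 and PCDHA1 stand for the other clusters.

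PCDHGA1: gactgtgggcgcCGCTGTtcactaatctgg

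PCDHGB1: acctctgggcgcCGCTGTcgaccaaaagga

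PCDHGA4: gactctgggtgtCGCTGTtcaccaatcagg

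PCDHGB2: acctctgagcgtCGCTGTtggtcaaaagaa

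PCDHGC3: gactctgtgtgcCGCTGTcggccaatgaag

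PCDHGC4: gagcccgggagcCGCTGTctgccaatcggg

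PCDHB2: agagacgcggGGTGGCGCTGcagccttaga

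PCDHA1: cattggccacATGATGTCGCtgtacaccac

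The PCDHGA4 window lies at chr5:141354964-141354993 and its CGCTGT begins 45 bases before the RefSeq start of the gene. The PCDHGC4 window lies at chr5:141484956-141484985, with CGCTGT 62 bases before the start, and the PCDHB2 window at chr5:141094545-141094574. Counted on both strands, CGCTGT was found in 17 of 20 gamma, 1 of 14 beta and 7 of 13 alpha promoters, against 11.2% of all 35116 promoters in the table. The shorter core CGCT was in 20 of 20 gamma, 14 of 14 beta and 12 of 13 alpha promoters, and in 70.0% of all promoters. The beta word GGTGGCGCTG was in 12 of 14 beta promoters and 0.276% of all promoters. The alpha word ATGATGTCGC was in 8 of 13 alpha promoters and 0.0313% of all. These words overlap one another, were found by counting in the same promoters, and describe the sequence only.

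The 250 bases before the start of PCDHGA4, the gamma gene with the highest level per exon length in 5 of the 6 groups, and of PCDHGC4, 1 of the low C-type genes, give the wider setting (chr5:141354771-141355020 and chr5:141484780-141485029, plus strand, CGCTGT in capitals).

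PCDHGA4: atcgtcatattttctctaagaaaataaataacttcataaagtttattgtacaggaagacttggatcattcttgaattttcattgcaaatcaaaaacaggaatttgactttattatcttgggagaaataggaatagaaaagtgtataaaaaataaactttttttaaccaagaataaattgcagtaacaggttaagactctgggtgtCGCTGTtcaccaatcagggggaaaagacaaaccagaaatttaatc

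PCDHGC4: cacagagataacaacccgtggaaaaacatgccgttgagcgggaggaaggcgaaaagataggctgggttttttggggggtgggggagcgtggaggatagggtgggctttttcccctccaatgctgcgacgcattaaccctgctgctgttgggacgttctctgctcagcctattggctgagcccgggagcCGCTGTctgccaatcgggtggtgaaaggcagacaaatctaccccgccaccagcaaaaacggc

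The table gives 1 mean per gene and group and no values of single libraries. A level is that mean, in log2 RPM (reads per 1000000 reads) as recovered from the values. A difference is the level of the first group minus that of the second, on the log2 scale, and ± gives the distance from the value to either end of its 95% counting interval, which covers counting error and not the spread between libraries or guides. No p-value could be computed. A gene was called higher or lower where the difference was at least 1, the larger mean was above 0 and the interval left out 0. The recovered depth ran from 5857937 reads per library in TASOR2 knockdown to 7406968 in untransduced cells. Each targeted gene was lower in its own knockdown. TASOR (listed as FAM208A) was at 3.29 in its knockdown and 7.22 in sgAAVS1 cells. TASOR2 (listed as FAM208B) was at 6.03 in its knockdown and 7.45 in sgAAVS1 cells. MPP8 (MPHOSPH8) was at 4.70 against 6.52 in sgAAVS1 cells, and PPHLN1 at 5.27 against 6.57. Of 16 erythroleukaemia markers, such as globins and GATA1, all 16 were above 0 in every group, and of 18 neuron markers 9 had no reads in any group.

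K562 cells transcribed the gamma cluster and, at this depth, hardly any of the alpha and beta clusters. No alpha or beta gene had a mean above 0 in any group, so only the 22 gamma genes entered the comparisons, among 16433 genes with a mean above 0 in at least 1 group. In sgAAVS1 cells 15 of 15 alpha genes had no reads, and in TASOR, MPP8 and TASOR2 knockdown 14 of 15 had none. In untransduced cells 11 of 15 alpha genes had none. A count of 0 over the libraries of a group allows a level of up to -2.21 in TASOR knockdown and -2.63 in sgAAVS1 cells.

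PPHLN1 knockdown was the one group in which each of the 15 alpha genes had at least 1 read. The highest, PCDHA1, had 5 reads in 1 of the 2 libraries of PPHLN1 knockdown, against 1 read in MPP8 and in TASOR2 knockdown, 2 reads in untransduced cells and none in TASOR knockdown or sgAAVS1 cells. PCDHA4 had 3 reads in PPHLN1 knockdown, and PCDHA2, PCDHA5 and PCDHA7 had 1 each. In the annotation (GENCODE v29) the 15 alpha genes have 2866 exonic bases common to all, so reads of 1 transcript can appear under several symbols, and the counts are too low for a comparison. Among the beta genes, between 11 and 15 of 16 had no reads in a group, and the highest level was that of PCDHB2, at -1.26 in TASOR2 knockdown and -2.02 in sgAAVS1 cells.

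**Figure D1:**
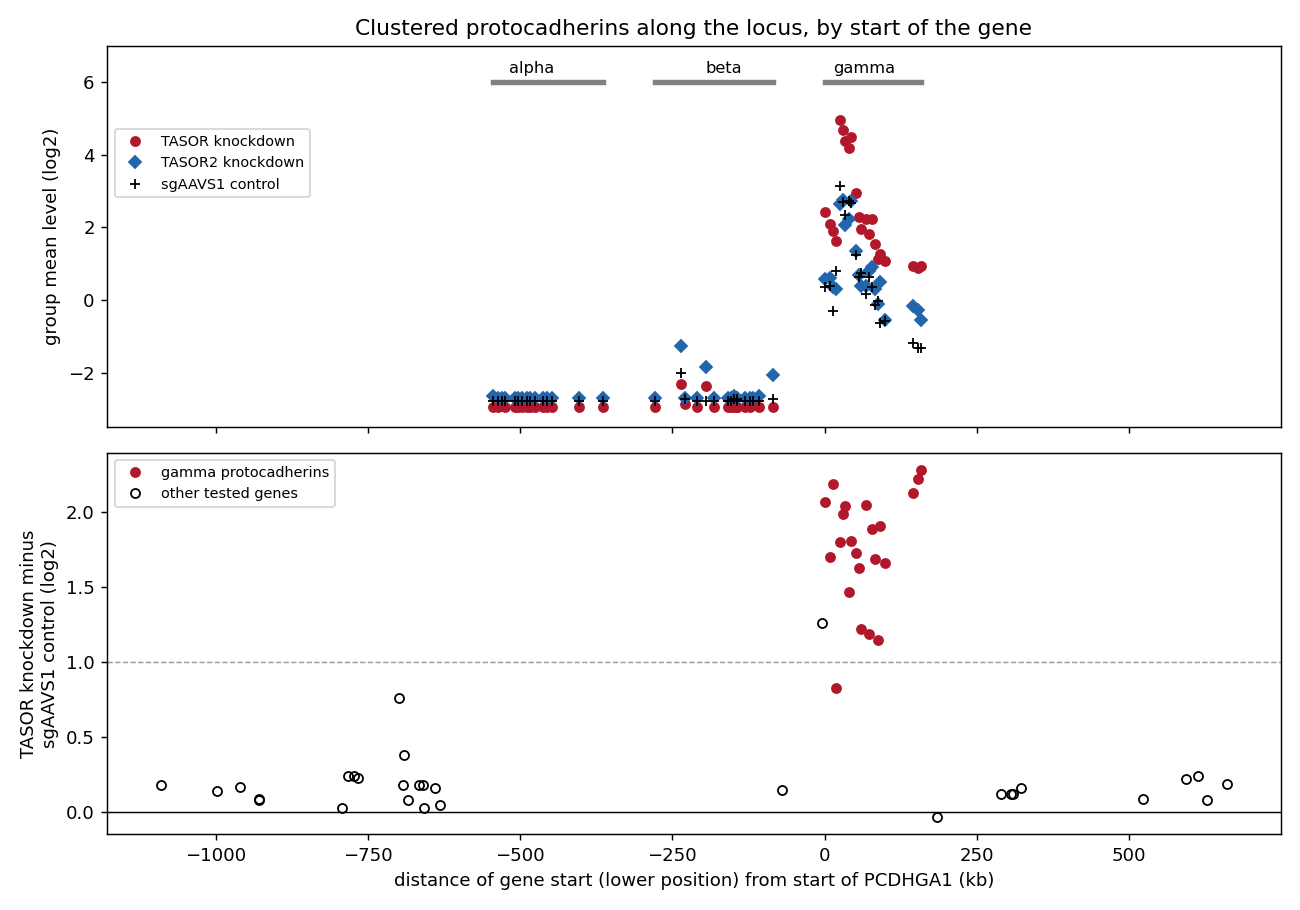
Levels of the 53 clustered protocadherins (upper panel, log2 mean in TASOR knockdown, TASOR2 knockdown and sgAAVS1 cells) and the difference between TASOR knockdown and sgAAVS1 cells for gamma genes and for the other tested genes around them (lower panel, log2), against distance from the start of PCDHGA1 in kb. Alpha and beta genes lie at or near each group's lowest value, gamma genes above it, and of the other genes 1, AC005618.6 at 1.26, lies above the dashed line at a difference of 1.

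All 22 gamma genes had reads in every group. In RNA from a whole culture, more cells with a transcript and more transcript per cell cannot be told apart. Their median level was 2.04 in TASOR, 1.60 in MPP8, 1.95 in PPHLN1 and 0.55 in TASOR2 knockdown, against 1.06 in untransduced and 0.39 in sgAAVS1 cells. In 20 of the 22 genes, the means of TASOR, MPP8 and PPHLN1 knockdown each stood above the other 3 groups, the exceptions being PCDHGA9 and PCDHGA11. This order leaves counting error aside, and its share over all tested genes was not computed. Against untransduced cells the counting interval lay above 0 for 14 genes in TASOR, 10 in MPP8 and 13 in PPHLN1 knockdown. For these intervals too, the share over all tested genes was not computed. The highest group was TASOR knockdown for 13 genes, PPHLN1 for 8 and MPP8 for 1, and the lowest was sgAAVS1 cells for 16 genes and TASOR2 knockdown for 6. Of the 22 genes, 14 had a mean above 0 in every group, and the other 8 passed the filter through groups other than sgAAVS1 cells, so that for those 8 the filter itself leaned toward a difference.

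**Figure D2:**
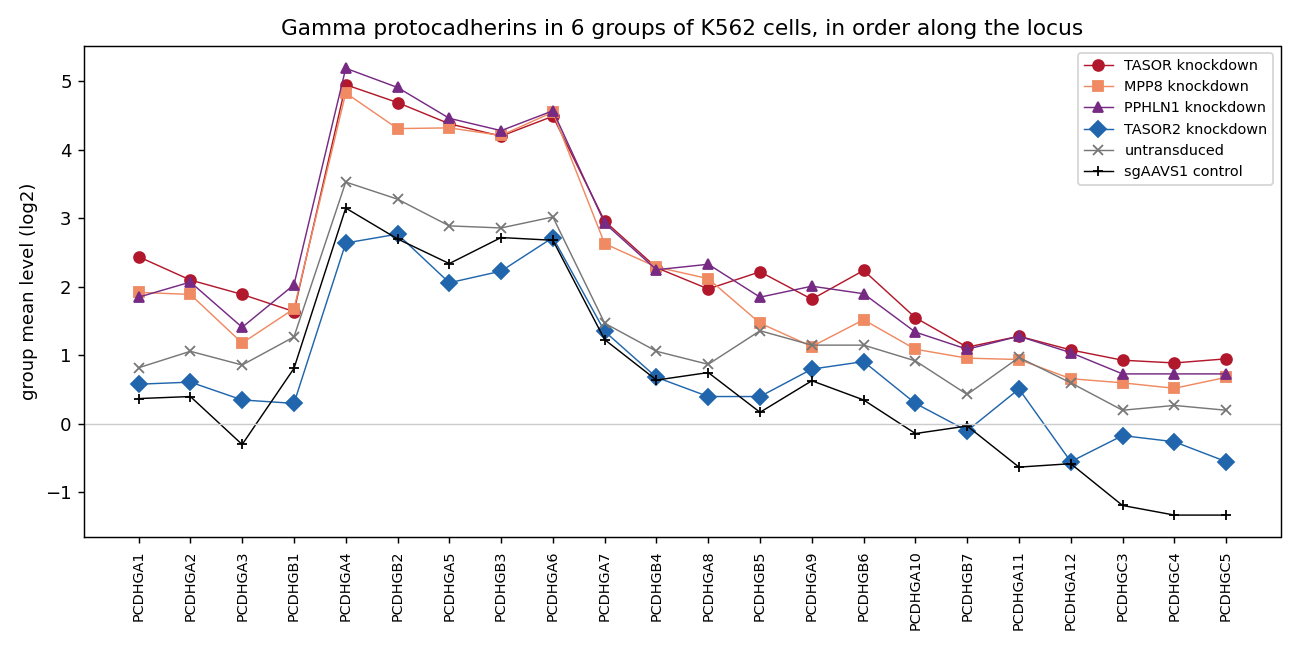
Group mean level (log2) of each of the 22 gamma protocadherins, in their order along chromosome 5, in 6 groups of K562 cells. The profile along the locus is alike in shape in the 6 groups, with a peak from PCDHGA4 to PCDHGA6, where TASOR, MPP8 and PPHLN1 knockdown lie between 4.20 and 5.19 and the other groups between 2.06 and 3.53.

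Levels along the gamma locus were far from even. The 5 neighbours PCDHGA4, PCDHGB2, PCDHGA5, PCDHGB3 and PCDHGA6 stood above all other gamma genes in each of the 6 groups; this stretch was picked out after its levels were seen. They are A-type and B-type gamma genes, whose proteins form adhesion dimers between cells and whose starts span from 24.5 to 43.3 kb after that of PCDHGA1. PCDHGA4 was at 4.95 in TASOR, 4.83 in MPP8, 5.19 in PPHLN1 and 2.64 in TASOR2 knockdown, against 3.53 in untransduced and 3.15 in sgAAVS1 cells. These means correspond to 215, 168, 217, 36.5, 85.8 and 55.0 reads per library in the same order. TASOR, MPP8 and PPHLN1 knockdown stood well above the other 3 groups, and TASOR2 knockdown was the lowest.

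PCDHGB2 had 4.69 in TASOR, 4.31 in MPP8, 4.91 in PPHLN1 and 2.77 in TASOR2 knockdown, against 3.28 in untransduced and 2.70 in sgAAVS1 cells. PCDHGA5 had 4.38, 4.32, 4.46 and 2.06 in TASOR, MPP8, PPHLN1 and TASOR2 knockdown, against 2.89 in untransduced and 2.34 in sgAAVS1 cells. The same split of the groups is seen in both genes, with TASOR2 knockdown beside or below the sgAAVS1 cells. PCDHGB3 had 4.20, 4.21, 4.28 and 2.23 in TASOR, MPP8, PPHLN1 and TASOR2 knockdown, against 2.86 in untransduced and 2.72 in sgAAVS1 cells. PCDHGA6 had 4.49, 4.55, 4.57 and 2.72 in TASOR, MPP8, PPHLN1 and TASOR2 knockdown, against 3.02 in untransduced and 2.68 in sgAAVS1 cells. In these 2 genes TASOR, MPP8 and PPHLN1 knockdown were nearly level with each other.

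Divided by exon length, the same 5 genes stayed above the other gamma genes in TASOR knockdown and sgAAVS1 cells, in another order among themselves. PCDHGA4 had 6.33 RPM per kb in TASOR knockdown and 1.81 in sgAAVS1 cells. PCDHGA6, the lowest of the 5 on this scale, had 2.83 in TASOR knockdown and 0.808 in sgAAVS1 cells. PCDHGA7, the next gene along and the highest outside the stretch in TASOR knockdown, had 1.43 in TASOR knockdown and 0.432 in sgAAVS1 cells.

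The 4 genes before the stretch were low. PCDHGA1 was at 2.44 in TASOR, 1.92 in MPP8, 1.85 in PPHLN1 and 0.58 in TASOR2 knockdown, against 0.82 in untransduced and 0.37 in sgAAVS1 cells. PCDHGA2 was at 2.10 in TASOR knockdown and 0.40 in sgAAVS1 cells, and PCDHGA3 at 1.89 and -0.30 in the same groups. PCDHGB1, which lies next to PCDHGA4, had 1.64 in TASOR and 0.30 in TASOR2 knockdown, against 1.27 in untransduced and 0.81 in sgAAVS1 cells, the smallest gap of any gamma gene between TASOR knockdown and sgAAVS1 cells.

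After the stretch, levels stepped down toward the end of the cluster. PCDHGA7 was at 2.96 in TASOR, 2.63 in MPP8, 2.93 in PPHLN1 and 1.35 in TASOR2 knockdown, against 1.47 in untransduced and 1.23 in sgAAVS1 cells. PCDHGB4, PCDHGA8, PCDHGB5, PCDHGA9 and PCDHGB6 lay between 1.82 and 2.28 in TASOR knockdown and between 0.17 and 0.75 in sgAAVS1 cells. PCDHGA10, PCDHGB7, PCDHGA11 and PCDHGA12 lay between 1.08 and 1.55 in TASOR knockdown and between -0.63 and -0.03 in sgAAVS1 cells.

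The 3 C-type genes, PCDHGC3, PCDHGC4 and PCDHGC5, closed the row and were among the lowest gamma genes in each group. In neurons C-type genes are expressed more evenly from cell to cell than the A and B types, and PCDHGC4 is known from mice as the gamma member that neuron survival depends on. PCDHGC3 was at 0.93 in TASOR, 0.60 in MPP8, 0.73 in PPHLN1 and -0.17 in TASOR2 knockdown, against 0.20 in untransduced and -1.19 in sgAAVS1 cells. PCDHGC4 and PCDHGC5 were both at -1.33 in sgAAVS1 cells, which is 2.47 reads per library, against 0.89 and 0.95 in TASOR knockdown. PCDHGA12, just before them, was at -0.55 in TASOR2 knockdown, as low as PCDHGC5, and at 0.66 in MPP8 knockdown, against 0.68 for PCDHGC5.

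In TASOR knockdown, compared with sgAAVS1 cells, 21 of 22 gamma genes were called higher and none lower, where 1.86% of all tested genes were called higher and 0.31% lower. Their median difference was 1.81, a 3.50-fold difference, beside 0.16 for all tested genes. PCDHGA5 was 2.04 ± 0.34, PCDHGB2 1.99 ± 0.30, PCDHGA6 1.81 ± 0.31, PCDHGA4 1.80 ± 0.26 and PCDHGB3 1.47 ± 0.31 higher. PCDHGC5 had the largest difference, 2.28 ± 1.13, with few reads behind it. The lowest gamma level was 95.7% of its level in TASOR knockdown and 100% in sgAAVS1 cells. Its difference may therefore rest on exons shared with the other gamma genes and not be particular to PCDHGC5. PCDHGB1, at 0.83 ± 0.68, was not called. Among the 14 genes above 0 in every group, 13 were called. Over all tested genes 305 were called higher and 51 lower; with each group centred on its median these were 144 and 101, and 19 gamma genes were still called higher and none lower.

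In MPP8 knockdown 19 of 22 were called higher than in sgAAVS1 cells and none lower, beside 1.57% of all tested genes called higher and 0.268% lower. The median was 1.49, beside 0.12 for all tested genes. PCDHGA5 was 1.98 ± 0.35, PCDHGA6 1.87 ± 0.31, PCDHGA4 1.68 ± 0.27, PCDHGB2 1.61 ± 0.32 and PCDHGB3 1.49 ± 0.32 higher. PCDHGB1 at 0.87 ± 0.70, PCDHGB7 at 0.98 ± 0.96 and PCDHGA9 at 0.50 ± 0.81 were not called. Among the 14 genes above 0 in every group, 12 were called.

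PPHLN1 knockdown had 22 of 22 called higher than sgAAVS1 cells, beside 2.76% of all tested genes called higher and 0.596% lower. Their median was 1.67, beside 0.17 for all tested genes. PCDHGB2 was 2.21 ± 0.30, PCDHGA5 2.12 ± 0.34, PCDHGA4 2.04 ± 0.26, PCDHGA6 1.90 ± 0.31 and PCDHGB3 1.56 ± 0.32 higher. The smallest difference was that of PCDHGB7, 1.12 ± 0.94. Among the 14 genes above 0 in every group, all 14 were called. TASOR, MPP8 and PPHLN1 knockdown shared their sgAAVS1 control, and 19 genes were called in each of them, beside 0.469% of all tested genes. The 19 include genes with an sgAAVS1 mean below 0, such as the C-type genes.

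**Figure D3:**
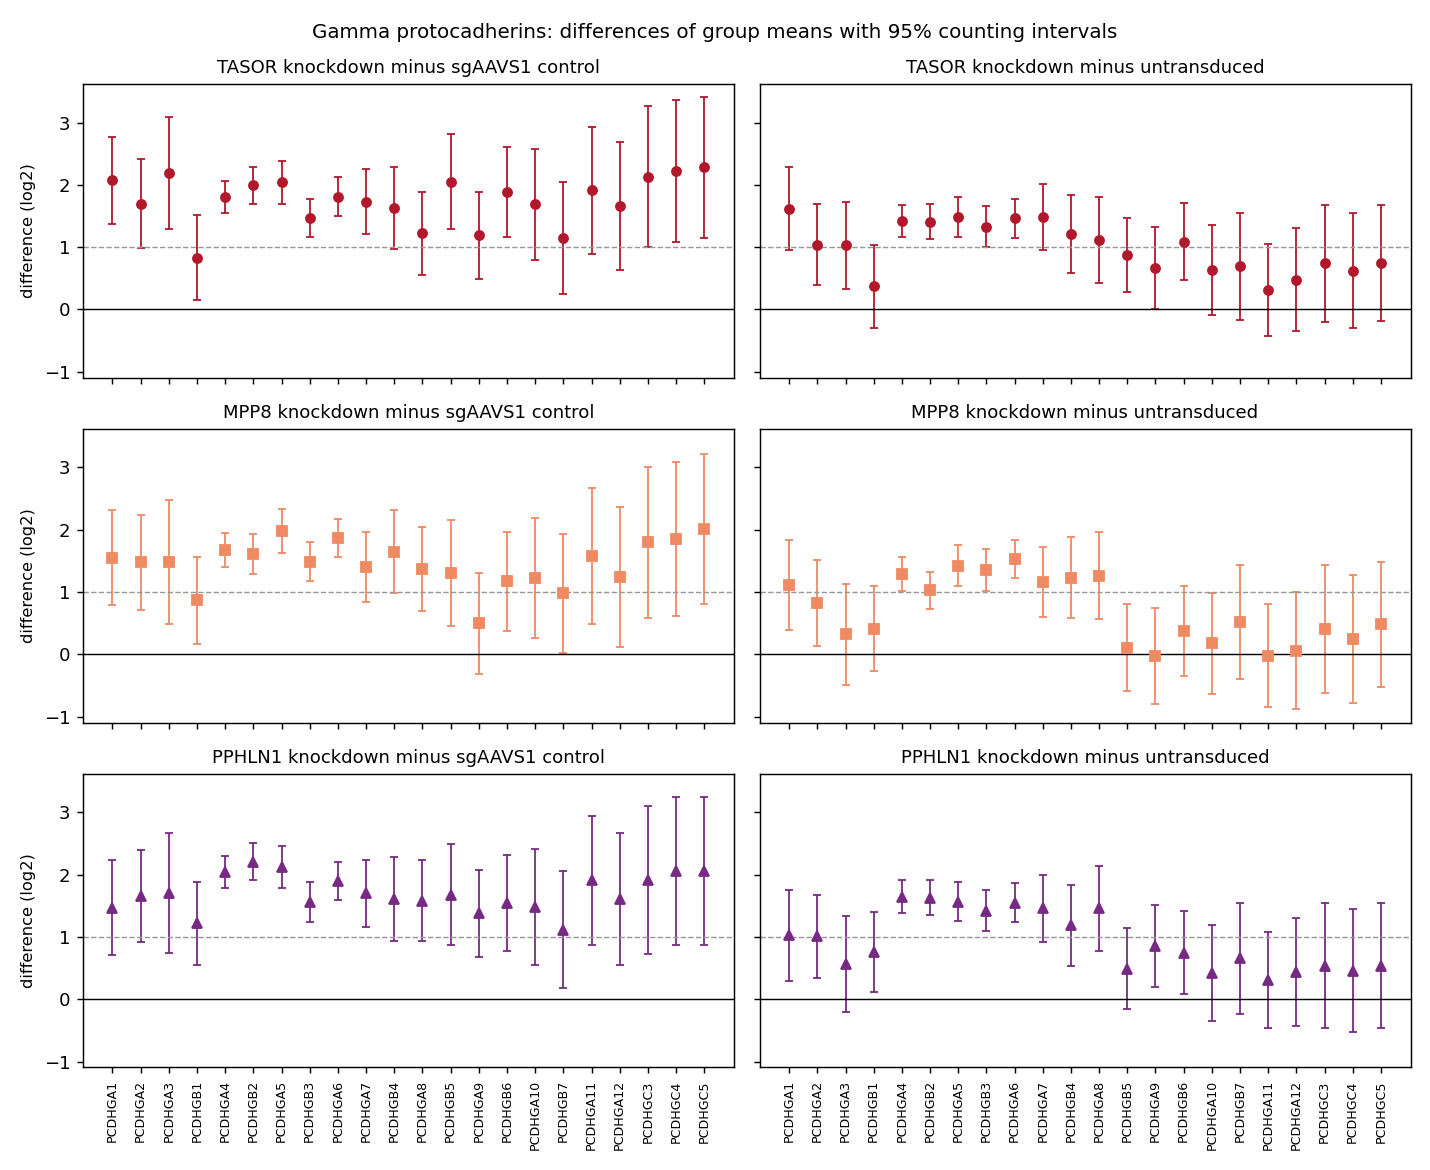
Differences of group means (log2) for the 22 gamma protocadherins in TASOR, MPP8 and PPHLN1 knockdown against sgAAVS1 cells (left) and against untransduced cells (right), with 95% counting intervals as bars and a dashed line at 1. Against sgAAVS1 cells the points run from 0.50 to 2.28 along the whole cluster, and against untransduced cells those from PCDHGB5 onward lie lower, with 1 of them called, PCDHGB6 in TASOR knockdown.

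Untransduced cells themselves had 8 of 22 gamma genes called higher than sgAAVS1 cells, beside 1.31% of all tested genes, and none lower, beside 0.219%, with a median of 0.57 beside 0.05. The 8 were PCDHGA3, PCDHGB5, PCDHGA10, PCDHGA11, PCDHGA12, PCDHGC3, PCDHGC4 and PCDHGC5, 1 of them among the first 4 genes and none in the high stretch. All but PCDHGB5 had an sgAAVS1 mean below 0, and of the 14 genes above 0 in every group 1 was called. PCDHGC4 was 1.60 ± 1.22 and PCDHGA11 1.60 ± 1.04 higher in untransduced cells. With quantile normalization 3 of the 22 were called, and the split over all tested genes was 105 higher and 89 lower in place of 215 and 36. In the high stretch the difference between untransduced and sgAAVS1 cells ran from 0.14 ± 0.38 for PCDHGB3 to 0.58 ± 0.35 for PCDHGB2.

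Set against untransduced cells, TASOR knockdown had 12 of 22 gamma genes called higher, beside 1.17% of all tested genes, with a median of 1.03 beside 0.12. MPP8 knockdown had 9 (1.16% of all tested genes; median 0.50 beside 0.08). PPHLN1 knockdown had 10 (1.52%; median 0.81 beside 0.13). Of the 14 genes above 0 in every group, 11 were called in TASOR, 9 in MPP8 and 10 in PPHLN1 knockdown. None of the 22 was called lower, beside 0.779% of all tested genes in TASOR, 0.937% in MPP8 and 0.761% in PPHLN1 knockdown. Centring each group on its median left 8 in TASOR knockdown, and over all tested genes 112 higher and 183 lower in place of 193 and 128. PCDHGA4 was 1.42 ± 0.26 higher in TASOR, 1.29 ± 0.27 in MPP8 and 1.65 ± 0.26 in PPHLN1 knockdown than in untransduced cells. PCDHGA1 was 1.62 ± 0.67 higher in TASOR, 1.11 ± 0.72 in MPP8 and 1.03 ± 0.73 in PPHLN1 knockdown.

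Against both controls at once, 12 gamma genes were called higher in TASOR knockdown, 9 in MPP8 and 10 in PPHLN1 knockdown, beside 0.505%, 0.663% and 1.18% of all tested genes. In TASOR2 knockdown none was, beside 0.968%. All of them lay from PCDHGA1 to PCDHGA8 but for PCDHGB6 in TASOR knockdown, which was 1.09 ± 0.62 higher than untransduced cells. From PCDHGB5 onward the other differences from untransduced cells were smaller: PCDHGA11 was at 0.31 ± 0.74 in TASOR, -0.02 ± 0.83 in MPP8 and 0.31 ± 0.77 in PPHLN1 knockdown. At 11.4 to 16.9 reads per library for PCDHGA11 in these knockdowns, a difference within those intervals could not be detected.

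TASOR2 knockdown had none of the 22 gamma genes called higher or lower than sgAAVS1 cells, where 2.13% of all tested genes were called higher and 1.98% lower. The median was 0.15, beside 0.07 for all tested genes, and 16 differences were above 0 and 6 below. PCDHGA4 was at -0.51 ± 0.40 and PCDHGB3 at -0.49 ± 0.47, the 2 genes whose intervals lay below 0, and PCDHGB2 was at 0.07 ± 0.41. The highest difference was that of PCDHGA11, 1.15 ± 1.16. Against untransduced cells all 22 differences of TASOR2 knockdown were below 0, with a median of -0.51 beside 0.04. In 6 genes the interval lay below 0. Shares of all tested genes with such signs or intervals were not computed for either control. None of the 22 gamma genes was called higher, beside 1.28% of all tested genes, or lower, beside 3.16%. With quantile normalization the median was -0.25, and over all tested genes 339 were higher and 272 lower in place of 211 and 519. PCDHGA4 was at -0.90 ± 0.40 and PCDHGA5 at -0.83 ± 0.49. The group mean of TASOR2 knockdown held 2 libraries by its values where the labels list 3.

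**Figure D4:**
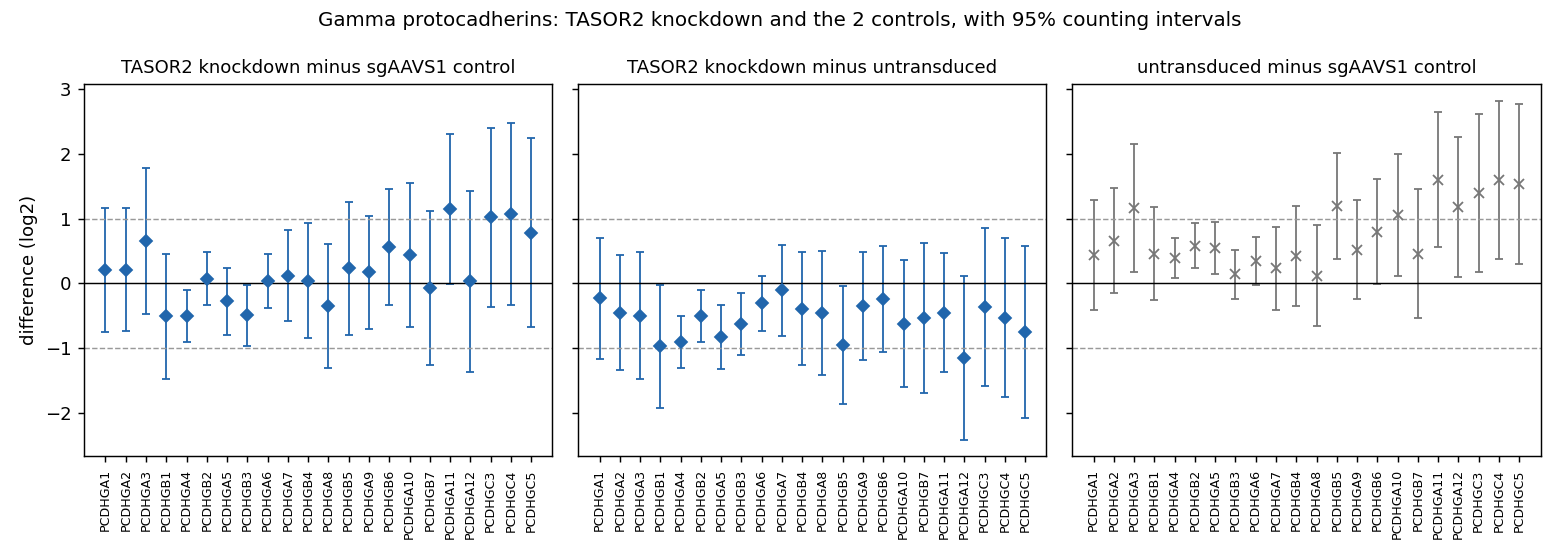
Differences of group means (log2) for the 22 gamma protocadherins in TASOR2 knockdown against sgAAVS1 cells (left) and against untransduced cells (middle), and in untransduced against sgAAVS1 cells (right), with 95% counting intervals as bars and dashed lines at -1 and 1. All 22 points lie below 0 for TASOR2 knockdown against untransduced cells, and all 22 lie over 0 for untransduced against sgAAVS1 cells.

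The other knockdowns were also compared directly with TASOR2 knockdown, which these 3 comparisons share. TASOR knockdown had 19 of 22 gamma genes called higher than TASOR2 knockdown, beside 5.11% of all tested genes, with a median of 1.55 beside 0.09. MPP8 knockdown had 12 (3.75%; median 1.25 beside 0.06). PPHLN1 knockdown had 18 of 22, beside 4.87% of all tested genes. Of the 14 genes above 0 in every group, 14 were called in TASOR, 12 in MPP8 and 13 in PPHLN1 knockdown. No gamma gene was called lower in any of the 3, beside 1.31% of all tested genes in TASOR, 1.47% in MPP8 and 1.45% in PPHLN1 knockdown. With quantile normalization 13 were called in TASOR and 11 in PPHLN1 knockdown, and over all tested genes the split in TASOR knockdown was 352 higher and 432 lower in place of 840 and 215. PCDHGA4 was 2.31 ± 0.36 higher in TASOR, 2.19 ± 0.37 in MPP8 and 2.55 ± 0.36 in PPHLN1 knockdown than in TASOR2 knockdown, and all 5 genes of the high stretch were called in each.

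Among TASOR, MPP8 and PPHLN1 knockdown no gamma gene reached a difference of 1 with an interval without 0. For these 3 pairs, the share of all tested genes called, or with an interval without 0, was not computed. The lack of calls therefore does not show that the 3 knockdowns were alike. The median difference was 0.22 for PPHLN1 minus MPP8, 0.33 for TASOR minus MPP8 and -0.03 for PPHLN1 minus TASOR. Counting intervals left out 0 for 3 genes in the first, 4 in the second and 3 in the third, the last in both directions. The largest of these differences was that of PCDHGA9, 0.88 higher in PPHLN1 than in MPP8 knockdown.

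Position along the cluster went with level in all 6 groups and with the differences in some. Across the 22 genes, which share exons and libraries, Spearman's rho of level with distance from PCDHGA1 ran from -0.56 in untransduced cells to -0.74 in MPP8 knockdown. Without the 3 C-type genes it ran from -0.32 in untransduced cells and -0.36 in TASOR2 knockdown to -0.61 in MPP8 knockdown. For the difference from sgAAVS1 cells, rho was 0.13 in TASOR, 0.03 in MPP8, 0.11 in PPHLN1 and 0.46 in TASOR2 knockdown, and 0.55 in untransduced cells. Against untransduced cells it was -0.59 in TASOR, -0.51 in MPP8, -0.65 in PPHLN1 and -0.10 in TASOR2 knockdown. Without the 3 C-type genes, the values against sgAAVS1 cells became -0.31 in TASOR, -0.42 in MPP8 and -0.21 in PPHLN1 knockdown, so their sign rested on those 3 genes, while those against untransduced cells were -0.54, -0.49 and -0.54.

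The gamma gene models share sequence, and this limits what a single low gene shows. In GENCODE v29, whose starts and ends match the table's for 22 of 22 gamma genes, 2181 exonic bases are common to all gamma genes, and shared bases make up 27.6 to 64.4% of a gene's exons. How reads in shared exons were counted is not stated in the labels or the table. In PPHLN1 knockdown PCDHGC3, PCDHGC4 and PCDHGC5 had the same level, 0.73. PCDHGC3 and PCDHGC5 were both at 0.20 in untransduced cells, and PCDHGC4 and PCDHGC5 both at -1.33 in sgAAVS1 cells. In TASOR2 knockdown these genes differed, at -0.17, -0.26 and -0.55. Equal values can arise when the same reads are listed under several symbols, which was not tested. If reads in the exons common to all gamma genes were counted for every gene, they cannot exceed the level of the lowest gamma gene. That level was 1.85 RPM in TASOR knockdown (PCDHGC4) and 0.398 in sgAAVS1 cells (PCDHGC5). That bound is 5.98 to 10.1% of the level of the 5 high genes in TASOR knockdown and 4.49 to 7.85% in sgAAVS1 cells. For the other 14 A-type and B-type genes it is 23.7 to 87.4% in TASOR knockdown and 16.9 to 61.7% in sgAAVS1 cells.

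The bound was then subtracted from every gene, a step added after seeing the data. For the 5 high genes the bound is a small part of the level, so this step could change their differences little. They were then 1.41 to 2.02 higher in TASOR knockdown than in sgAAVS1 cells. In MPP8 knockdown they were 1.46 to 1.99 higher than in sgAAVS1 cells, and in PPHLN1 knockdown 1.52 to 2.22 higher. In TASOR2 knockdown they were at -0.63 to 0.01, and in untransduced cells at -0.02 to 0.49. For the other 14 genes the remainder ran from -0.84 to 2.16 in TASOR knockdown against sgAAVS1 cells, with 11 of 14 above 0. Whether the low genes have transcripts of their own was therefore not resolved by this table.

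**Figure D5:**
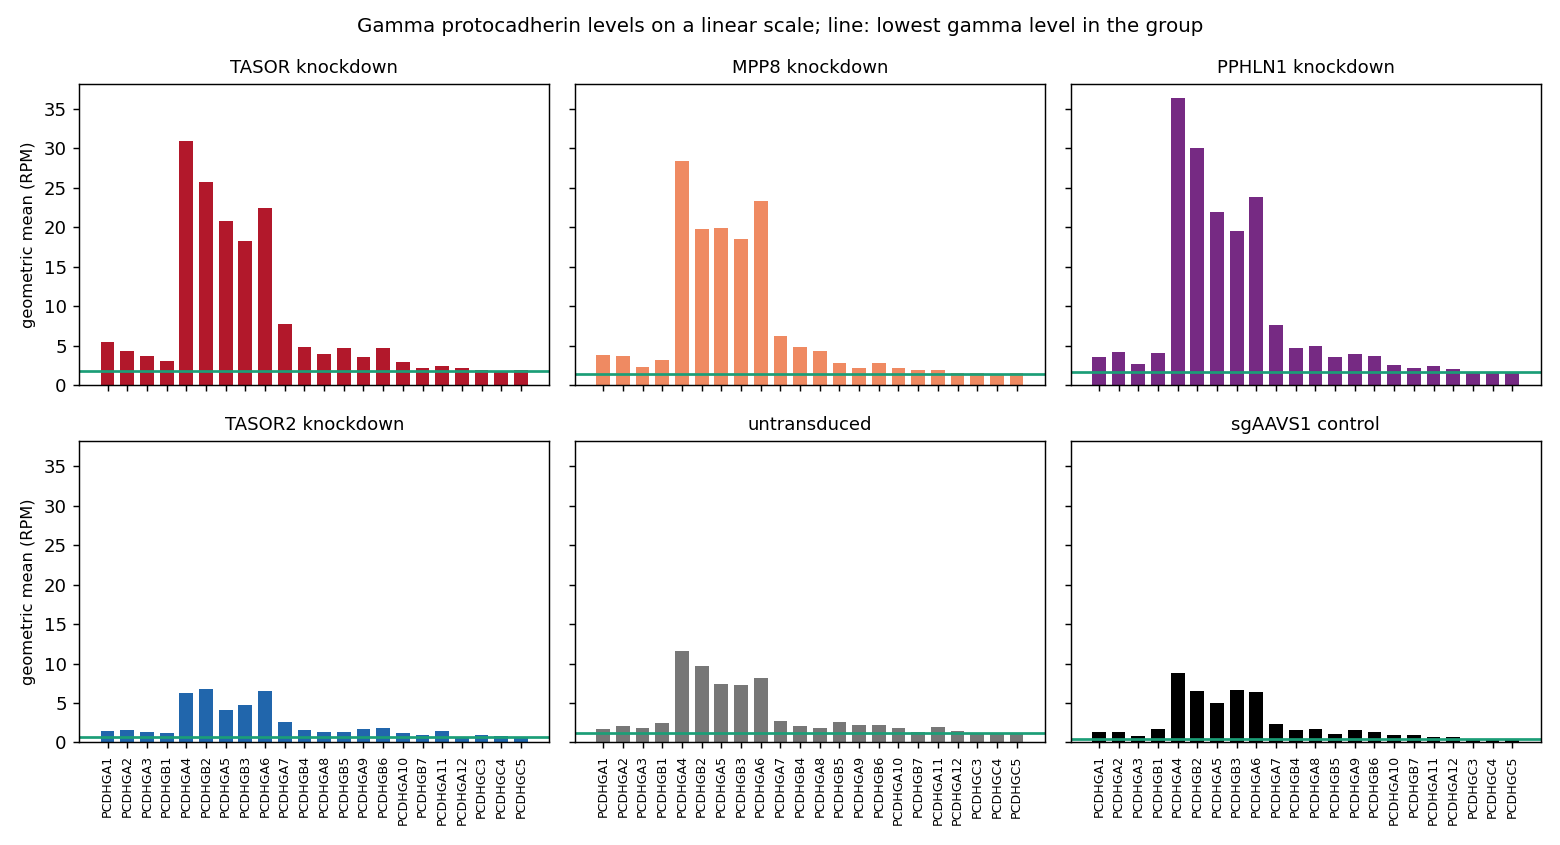
Levels of the 22 gamma protocadherins on a linear scale (geometric mean, RPM, bars from 0) in 6 groups, with a green line at the lowest gamma gene of each group. The 5 genes from PCDHGA4 to PCDHGA6 stand well clear of the line in each group, while the C-type genes lie on or near it.

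Among the other genes around and inside the cluster, 1 was called in TASOR knockdown against sgAAVS1 cells. Of 35 genes within 500 kb on either side, 28 were tested. None was called in TASOR, MPP8, PPHLN1 or TASOR2 knockdown against sgAAVS1 cells. In those comparisons 1.57 to 2.76% of all tested genes were called higher and 0.268 to 1.98% lower. At such shares 28 genes could well give no call. Their median in TASOR knockdown was 0.16, beside 0.16 for all tested genes. DIAPH1, a formin gene just beyond the gamma cluster, had a difference of -0.03 ± 0.04 between TASOR knockdown and sgAAVS1 cells. Inside the cluster 23 other genes are listed, of which 18 had no reads and 2 were tested. TAF7, a TFIID subunit on the opposite strand between the beta and gamma genes, was at 7.10 in TASOR knockdown and 6.95 in sgAAVS1 cells.

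The called gene was AC005618.6, a long noncoding RNA on the plus strand that ends 1214 bases before PCDHGA1 (chr5:141326210-141329357, named AC005618.1 in GENCODE v29). It was at 2.87 in TASOR, 2.52 in MPP8, 2.35 in PPHLN1 and 0.74 in TASOR2 knockdown, against 1.94 in untransduced and 1.61 in sgAAVS1 cells. As in PCDHGA4, the means of TASOR, MPP8 and PPHLN1 knockdown stood above the other 3 groups and TASOR2 knockdown was the lowest. Unlike PCDHGA4, AC005618.6 was not called in these knockdowns against untransduced cells. There it was 0.93 ± 0.48 higher in TASOR, 0.57 ± 0.52 in MPP8 and 0.41 ± 0.53 in PPHLN1 knockdown. It was 1.26 ± 0.48 higher in TASOR knockdown than in sgAAVS1 cells, and 0.91 ± 0.52 and 0.75 ± 0.53 in MPP8 and PPHLN1 knockdown, which did not reach the size called. In TASOR2 knockdown it was at -1.20 ± 0.78 against untransduced cells, called lower, and at -0.87 ± 0.78 against sgAAVS1 cells. TASOR knockdown was 2.13 ± 0.74 above TASOR2 knockdown.

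Listed regulators of the clusters and partners of their proteins gave no call. Of 36 tested regulators of the clustered protocadherins, including CTCF, cohesin subunits, SMCHD1, DNA methyltransferases and SETDB1, none was called in any of the 12 comparisons. Over these comparisons 1.16 to 5.11% of all tested genes were called higher and 0.219 to 3.16% lower. A lack of calls in lists of this size was not tested against those shares. CTCF, which binds the promoters, was at 7.05 in TASOR knockdown and 6.86 in sgAAVS1 cells. SMCHD1, a repressor of the clusters, was at 8.41 in TASOR and 8.74 in TASOR2 knockdown, against 8.37 in sgAAVS1 cells. SETDB1, the H3K9 methyltransferase that works with HUSH, was at 7.64 in TASOR knockdown and 7.44 in sgAAVS1 cells. Of 8 tested partners of gamma protocadherins, such as the kinases PTK2 and PTK2B, none was called either.

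Other protocadherins and large cadherins gave 1 call. Of 22 listed outside the clusters 8 were tested, and none was called in any knockdown against sgAAVS1 cells. In those comparisons 1.57 to 2.76% of all tested genes were called higher and 0.268 to 1.98% lower, so 8 genes could well give no call. PCDH1, a protocadherin on the same chromosome beyond the gamma cluster, was at 4.73 in TASOR, 4.44 in MPP8, 4.85 in PPHLN1 and 3.92 in TASOR2 knockdown, against 5.15 in untransduced and 4.64 in sgAAVS1 cells. It was called lower in TASOR2 knockdown against untransduced cells, at -1.23 ± 0.25. FAT1 was at 8.44 in TASOR knockdown and 8.33 in sgAAVS1 cells.

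Marker lists of other cell types gave few calls beside the gamma genes. The shares of all tested genes called in these comparisons were those given above for the regulators. Of 18 neuron markers 5 were tested, with a summed level of 126 RPM in TASOR, 123 in MPP8, 118 in PPHLN1 and 93.9 in TASOR2 knockdown, against 112 in untransduced and 110 in sgAAVS1 cells. SYP, which encodes synaptophysin, was at 2.28 in TASOR2 knockdown, against 2.41 in untransduced and 3.52 in sgAAVS1 cells, and was called lower against sgAAVS1 cells in both. In TASOR, MPP8 and PPHLN1 knockdown SYP was at 3.62, 3.73 and 3.29, so that it was called higher in TASOR and MPP8 knockdown than in untransduced cells and higher in all 3 than in TASOR2 knockdown. SYN1, which encodes synapsin, was 1.03 ± 0.68 higher in MPP8 than in TASOR2 knockdown. Fibroblast and epithelial markers had no call in any comparison. Of the lymphoid and monocyte markers, CD79A was 1.70 higher in PPHLN1 knockdown than in sgAAVS1 cells, at a level of 0.51, and was also called higher there against untransduced cells and TASOR2 knockdown. CD14, a monocyte receptor gene among the 28 tested genes within 500 kb, was 1.43 ± 1.39 higher in TASOR and 1.76 ± 1.38 higher in TASOR2 knockdown than in untransduced cells. Against TASOR2 knockdown it was at -2.18 ± 1.38 in MPP8 and -2.69 ± 1.21 in PPHLN1 knockdown, called lower in both. CD3E, a T cell receptor chain gene, was 1.16 ± 1.02 higher in MPP8 knockdown than in untransduced cells and 1.83 ± 1.28 higher than in TASOR2 knockdown. CD14 and CD3E rest on 1.34 to 12.5 reads per library. Of the erythroleukaemia markers SLC4A1, the red cell anion exchanger, was 1.17 higher in PPHLN1 knockdown than in sgAAVS1 cells and 1.25 higher than in TASOR2 knockdown. The part of these in the gamma differences was not tested.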

How the data were processed

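RNA of K562 dCas9-KRAB cells was depleted of ribosomal RNA and made into directional libraries, per the labels' protocols. Reads were handled with cutadapt and Bowtie2 on hg38, per the submitters' processing notes; neither versions nor the counting step are stated there. The deposited table holds the mean log2 level of untransduced cells and, for the other 5 groups, another quantity: judged from the column names and values, the authors' mean log2 level of the group divided by that of untransduced cells. The product gave each group's log2 level. The lowest value of each column stood for 0 reads, set to 0.9, and low values matched means of log2 whole reads over 2 libraries (3 in sgAAVS1), which gave the depths. For TASOR2 that is 2 libraries where the labels list 3.

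Rows with a shared symbol (87) were dropped. Genes with a mean above 0 in at least 1 of the 6 groups were tested, 16433 in all, in 12 comparisons. Differences carry a 95% counting interval from Poisson variance on the log2 scale, tested on simulated data. With group means only, no test over samples was possible, and genes were called by the rule of size given in the report. The text names every member above 0 in at least 1 group, the targeted genes, and called members of the lists; members and lists were chosen with earlier results of these data known. Exon models came from GENCODE 29. Python 3.11.15, numpy 2.4.6, pandas 2.3.3 and scipy 1.17.1 were used.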

Additional observations from a re-analysis of the deposited data

How the results depend on the processing

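Counts of gamma genes called higher, out of 22, were recomputed under 7 alternatives and 2 chosen after seeing the data. No count changed direction, and no median of the 12 comparisons moved by more than the members' typical counting error except without the filter, where 7 did and 31 alpha and beta genes at or near 0 reads came in. Asking for a mean above 2 left 14 gamma genes, of which 13 were called in TASOR, 12 in MPP8 and 14 in PPHLN1 knockdown and 1 in untransduced cells, all against sgAAVS1. Of the 13699 genes tested at that filter, 82, 118, 185 and 31 were higher, in the same order. A size of 1.5 left 10 in MPP8 knockdown and 3 in untransduced cells against sgAAVS1, beside 127 and 73 of all tested genes. Against untransduced cells it left 1 in TASOR, 1 in MPP8 and 4 in PPHLN1 knockdown, and against TASOR2 knockdown 7 in MPP8 and 10 in PPHLN1 knockdown. Over all tested genes these comparisons had 64, 81, 121, 250 and 333 higher, in the same order. A size of 0.6 gave 5 lower in TASOR2 knockdown against untransduced cells, where 1158 of the 16433 tested genes were lower and 410 higher. Quantile normalization left 3 in untransduced cells against sgAAVS1 and 11 in PPHLN1 against TASOR2 knockdown. Over all tested genes these comparisons had 105 and 365 higher and 89 and 419 lower. Within the 5 genes from PCDHGA4 to PCDHGA6, 5 were called in each comparison of TASOR, MPP8 and PPHLN1 knockdown, 0 in TASOR2 knockdown and 0 in untransduced cells. With a GC trend removed over the 13286 tested genes with a value, 20 were called in TASOR, 18 in MPP8, 21 in PPHLN1 and 0 in TASOR2 knockdown against sgAAVS1. Of those 13286 genes 136, 154, 257 and 165 were higher, in the same order. The cause of these shifts was not tested.

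No paired analysis was possible because the table holds group means only, and leaving out each replicate was not run for the same reason, so a part of a single library or guide in these differences was not tested. Depth limits the low genes: in sgAAVS1 cells the C-type genes rest on 2.47 to 2.71 reads per library.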
